A study of Mus musculus with 6 samples.

Results

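Ppara encodes the nuclear receptor PPAR-alpha, and 9 of its best known target genes are described with it here in gut tissue from Cftr null mice, Cftr being the chloride and bicarbonate channel of epithelial cells. The 10 genes were Ppara, Cyp4a10, Cyp4a14, Pdk4, Acaa1b, Acot1, Cpt1a, Ucp2, Fabp3 and Angptl4, and every probe set whose annotated symbol was exactly one of them was taken. That gave 13 probe sets of 9 genes, out of 12422 probe sets and 8251 genes on the array. No probe set carried the symbol Ucp2, so no intensity is given for it and it enters only the search of promoters. The genes were chosen by their textbook role and with the difference between null and control mice in these same samples already known. That difference is therefore given for them as a description and supports nothing, and no p of it is printed for a member. Counts of members below its threshold are given without being read. The tests of sex and of its interaction with genotype are printed with their p. The 3 controls were Cftr +/+ and the 3 nulls Cftr -/-, all congenic on black6, aged 40 days and given Peptamen, a liquid formula, since day 10 to keep the gut from blocking. Each group had 2 males and 1 female, the females being control replicate 3 and null replicate 2. Each array held total RNA of the whole small intestine of 1 mouse, and the labels name neither the altered part of Cftr nor any restriction to a cell type.

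PPAR-alpha is switched on by fatty acids and their derivatives. It pairs with a retinoid X receptor and binds DNA at direct repeats of the half-site AGGTCA that lie 1 base apart. Its targets encode enzymes that take up, activate and oxidise fatty acids in mitochondria, peroxisomes and the endoplasmic reticulum, and in the small intestine it is found in the absorptive epithelium, where dietary fat arrives.

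Values are scaled intensities in arbitrary units on 1-colour Affymetrix arrays, with a trimmed mean of 500.3 on each of the 6, and the number of mice limits their precision. The level of 1 probe set says nothing about that of another. Values are given for replicates 1, 2 and 3 of a group, in that order. Cftr itself read 801.6, 1017.5 and 1002.0 in controls against 325.9, 295.6 and 368.5 in nulls. Of 12 enterocyte marker genes measured, of 14 listed, none was at 0, Akp3 fell and 0 rose. Their summed intensity was between 138585 and 161136 in controls and between 82467 and 122248 in nulls. This sum moved most with Fabp2 (means 18085 and 7991), Lct (11037 and 2033), Apoa4 (23897 and 15673) and Fabp1 (19902 and 15048). Fabp1 and Fabp2 also stand in the target lists used below. The null mean was 92.1% of the control mean for Krt20, 91.9% for Apoa1 and 82.0% for Vil1. It was higher than in controls for Cdx1 (114%) and Cdx2 (133%). In whole tissue, fewer cells of a type and less RNA per cell cannot be told apart, and this applies to every value below. The summed level of 8 smooth muscle genes was between 9534 and 14317 in controls and between 16858 and 21379 in nulls. That of 8 mast cell genes was between 699.9 and 924.9 in controls and between 4551 and 12233 in nulls. The mast cell sum moved with Mcpt1 (means 93.3 and 4394) and Mcpt2 (109.0 and 3247). Cpa3 (23.2 and 246.6) and the dim Fcer1a (4.83 and 46.4) and Ms4a2 (13.6 and 56.3) were also higher in nulls. Kit (225.3 and 227.8) and the dim Hdc (18.5 and 18.5) hardly differed, and Tpsb2 was lower (305.8 and 232.1). The 7 adipocyte genes summed to between 2165 and 3482 in controls and between 1684 and 1713 in nulls, a sum that moved with Pck1 (means 1005 and 103.2) and Lipe (531.2 and 293.0), which other cells also express. The means of Lep (885.8 and 1058), Fabp4 (117.7 and 139.4) and the dim Adipoq (55.9 and 76.8) were higher in nulls. The part of these cell types in the results was not tested.

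Ppara, Cyp4a10, Pdk4, Acaa1b and Acot1 read lower in every null mouse than in every control, on each of their probe sets. Mean intensity in nulls was 40.5% of the control mean for Ppara, 3.63% for Cyp4a10, 14.5% for Pdk4, 35.0% for Acot1, and 36.0% and 29.2% for the pair of Acaa1b probe sets. Cpt1a stood at 95.1%. The probe sets of Angptl4 differed among themselves, from 38.7% to 84.7% for the 3 that were bright enough, and Cyp4a14 and Fabp3 were too dim to read.

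Ppara, read by 1 probe set, gave 1144.0, 1686.1 and 1133.8 in controls against 476.1, 505.9 and 621.7 in nulls. All nulls lay below all controls, and control replicate 2 was the highest mouse. The means were 1321 ± 316 (SD, n = 3) and 534.6 ± 76.9 (SD, n = 3). The difference on the log2(value + 12) scale, the scale of every log2 difference given here, was -1.27 (SE 0.19).

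Cyp4a10 encodes a microsomal cytochrome P450 that hydroxylates the far end of fatty acids. It read 928.3, 1192.4 and 506.8 in controls and 8.30, 45.9 and 41.1 in nulls. All 3 nulls were under 109.7, the level below which a value was treated as dim, and all 3 controls were well over it. This probe set therefore entered the fit through the control group alone and had to differ. The means were 875.8 ± 346 and 31.8 ± 20.5 (SD, n = 3 each), at least 6.88-fold lower in nulls against that level, and the fitted log2 difference of -4.40 (SE 0.46) has no exact size because it depends on the added 12. The name of the probe set (92600_f_at) marks possible binding of related transcripts, and which Cyp4a genes it reads was not tested. Its relative Cyp4a14 was at 39.0, 37.3 and 42.1 in controls and 23.3, 48 and 27.9 in nulls, under the dim level in all 6 mice.

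Pdk4, the kinase that shuts pyruvate out of mitochondrial oxidation when fatty acids are burnt, read 766.8, 1191.9 and 490.2 in controls and 56.9, 155.9 and 142.4 in nulls. The groups did not overlap, and null replicate 1 was the lowest mouse. The means were 816.3 ± 353 and 118.4 ± 53.7 (SD, n = 3 each), at least 6.39-fold lower in nulls, and the log2 difference was -2.68 (SE 0.41).

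Acaa1b, a thiolase that completes a round of peroxisomal beta-oxidation, was read by a pair of probe sets. The brighter one gave 3104.8, 3507.4 and 2110.6 in controls and 784.4, 1176.7 and 586.7 in nulls, a log2 difference of -1.79 (SE 0.28). The other gave 1252.1, 1458.7 and 808.5 in controls and 376.9, 405.0 and 484.8 in nulls, a log2 difference of -1.41 (SE 0.22). Groups were apart on both, and control replicate 3 was the lowest control on both, whereas the highest null was replicate 2 on the brighter one and replicate 3 on the other. How far the probes also read the near-identical Acaa1a was not tested.

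Acot1, which splits fatty acyl-CoA in the cytosol, read 621.6, 458.0 and 211.0 in controls and 134.9, 160.9 and 155.6 in nulls. The nulls lay close together, with an SD of 13.7, and the controls spread widely, with an SD of 207. The groups did not overlap, but the female control stood nearer to the nulls than to the other controls, and the log2 difference was -1.32 (SE 0.35).

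Cpt1a, the outer-membrane transferase that admits long-chain fatty acids to mitochondria, behaved differently. It read 3608.0, 3615.9 and 2894.2 in controls and 3270.8, 2924.8 and 3422.8 in nulls. The groups overlapped, and the lowest mouse of each was the female. The means were 3373 ± 414 and 3206 ± 255 (SD, n = 3 each), a log2 difference of -0.07 (SE 0.13), so that the difference was smaller than the spread among mice. Fabp3, a cytosolic fatty acid carrier best known from muscle, was under the dim level in all mice, between 7.40 and 57.0 in controls and between 5.80 and 30.8 in nulls.

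Angptl4, a secreted inhibitor of lipoprotein lipase, had 4 probe sets. On 102114_f_at it read 345.3, 376.5 and 301.2 in controls and 125.1, 161.2 and 109.6 in nulls, with no overlap and a log2 difference of -1.30 (SE 0.19). On the brightest, 96119_s_at, it read 416.8, 651.9 and 277.0 in controls and 222.1, 293.4 and 207.1 in nulls, where the female null lay above the female control, and the log2 difference was -0.80 (SE 0.29). On 96118_at it read 289.9, 199.7 and 137.6 in controls and 188.2, 190.5 and 152.6 in nulls, a log2 difference of -0.17 (SE 0.27) within the spread of the controls. The fourth was dim. The size of the Angptl4 difference thus rests on the probe set read, and the names of 102114_f_at and 96119_s_at mark possible cross-hybridization.

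**Figure D1:**
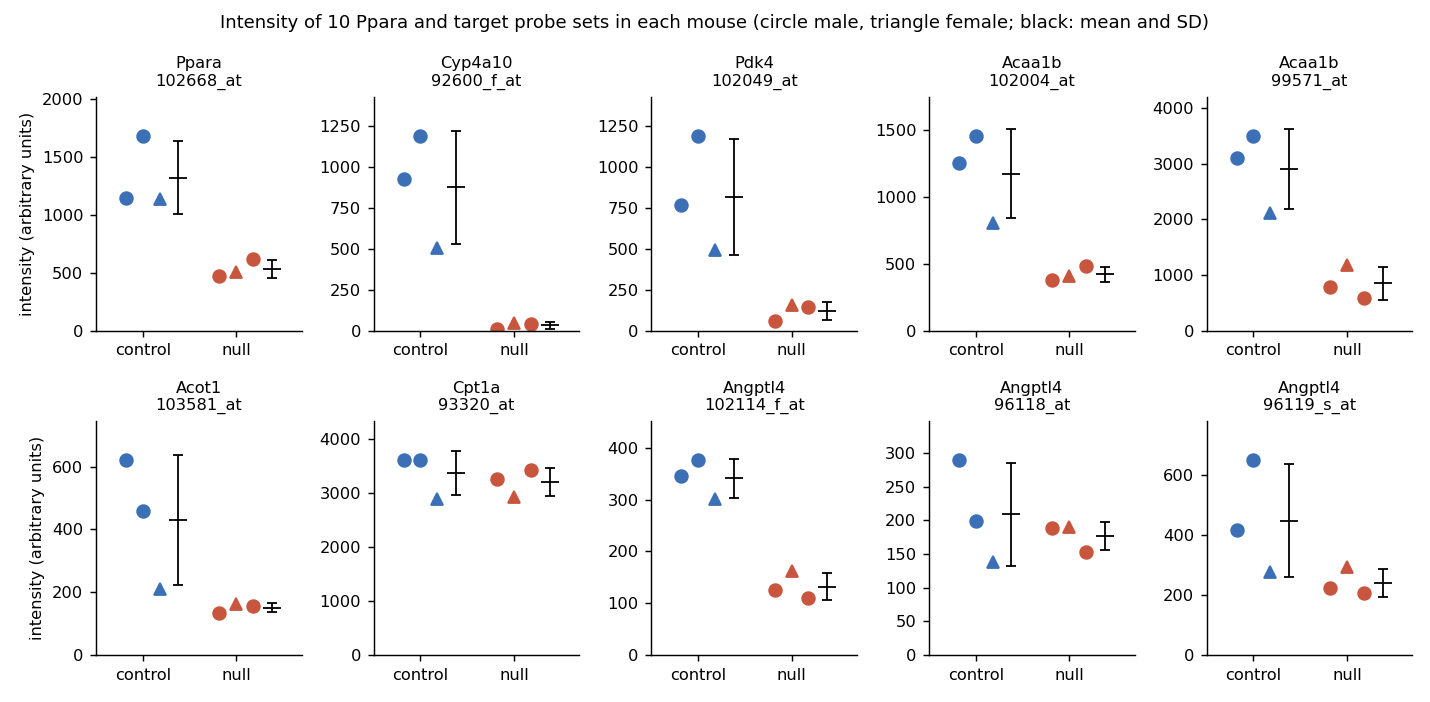
Intensity in arbitrary units (vertical axes, linear, each starting at 0) of the 10 bright member probe sets in each of 3 control and 3 null mice; circles are males, triangles females, and the black marks give the mean and SD of each group. Nulls lie below all controls on 7 of the 10 panels and overlap with them for Cpt1a and on 2 of the Angptl4 panels.

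Of the 13 member probe sets, 10 passed the filter on dim values and 3 did not. In the limma fit of null against control 6 of the 10 had an adjusted p under 0.05, all lower in nulls, beside 1.87% of all 7601 tested probe sets, and groups were apart with nulls lower on 7 of the 10, beside 10.8% of all. The median log2 difference was -1.31 over the 10 and 0.03 over all tested. Since this contrast was known when the genes were chosen, nothing is read from these shares. The count below the threshold also changed when 1 mouse was left out, as did that of all probe sets lower in nulls. The latter was 142 with all mice, 35 without null replicate 1 and 45 without control replicate 1. With 1 mouse left out, the log2 difference lay between -1.38 and -1.08 for Ppara. For the brighter Acaa1b probe set it lay between -2.05 and -1.55. Leaving out null replicate 1 left Cyp4a10 alone below the threshold, and leaving out control replicate 1 left 2, Cyp4a10 and Ppara. Cyp4a10 entered the fit through the control group alone and had to differ, so its place in these counts shows nothing. With males only the count was again 6, but Acot1 was below the threshold and Ppara was not.

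Within the control group the female was the lowest mouse on all 10 bright member probe sets, and control replicate 2 the highest on 8. Within the nulls the female was the highest on 7 of the 10. Among the 136 other probe sets with an adjusted p under 0.05 and lower in nulls, control replicate 3 was the lowest control on 61.8%. The 10 probe sets come from the same mice and share genes, so they are not separate observations of this order. No share over all tested probe sets is given for these orders, so they are not read as particular to the members.

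The difference between null and control was smaller between the females than between the males on all 10. For Cyp4a10 and Pdk4, whose mean log2 level in nulls lay at or below the dim level, no size is given to that gap. For the brighter Acaa1b probe set the difference was -2.26 in males and -0.84 in the female pair, and for Acot1 -1.80 and -0.37. For Ppara itself the values were close, at -1.33 and -1.15. Tested as an interaction of genotype and sex with limma, 0 of the 10 passed (adjusted p = 0.9998 each), as did 0% of all tested probe sets. Without adjustment 3 of the 10 were below 0.05 (Acaa1b, Acot1 and Angptl4), beside 3.1% of all. The median interaction was 1.12 over the 10, Cyp4a10 and Pdk4 included at their fitted values, and 0.01 over all tested, but 0.43 over the 136 other probe sets lower in nulls, of which 85.3% were above 0. With 1 female per group, sex and the single mouse cannot be told apart.

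**Figure D2:**
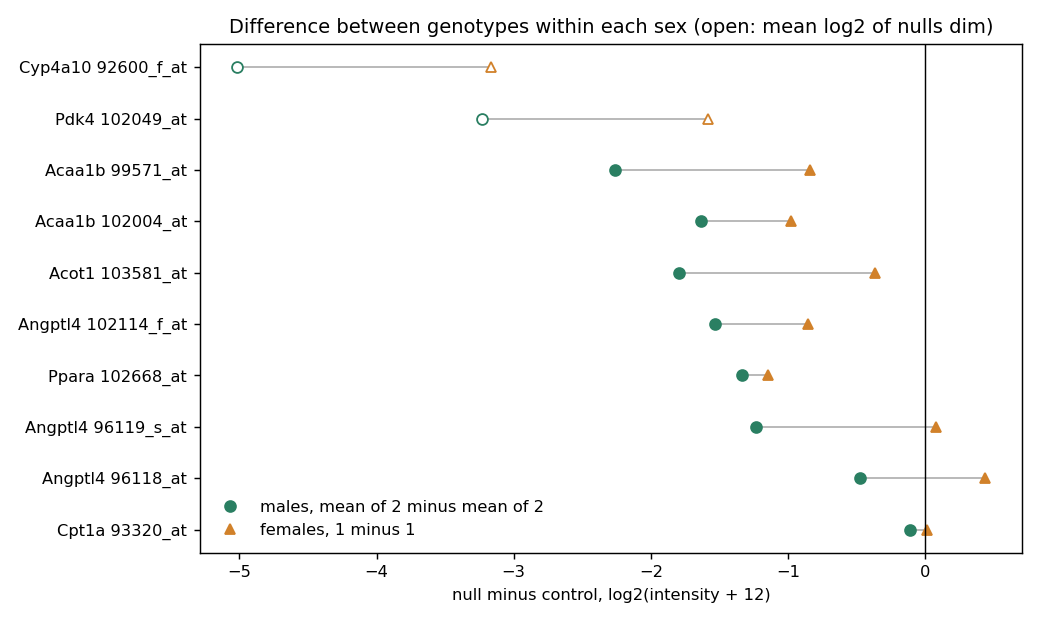
Null minus control on the log2(intensity + 12) scale (horizontal axis) for the 10 bright member probe sets, for males (circles, means of 2 mice each) and females (triangles, 1 mouse each). Open symbols mark Cyp4a10 and Pdk4, whose mean log2 level in nulls was dim, so that their positions have no exact size. Every triangle lies to the right of its circle, by 0.13 for Cpt1a, 0.19 for Ppara and 1.43 for Acot1, and 3 triangles lie above 0.

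Averaged over genotypes, the sex difference passed the threshold on 0 of the 10 by limma (adjusted p between 0.921 and 0.984), and on 0 of the 10 at 0.05 without adjustment, beside 0.0263% and 4.97% of all tested probe sets. The female minus male log2 differences lay between -0.58 for Acot1 and 0.09 for Angptl4 (102114_f_at), with a median of -0.21 against 0.01 over all tested.

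The letters upstream of the start site were compared for the 7 members that had an entry in the RefSeq promoter table (GRCm38.p6); Cyp4a10, Cyp4a14 and Angptl4 are named only. The 250 bases before the start were searched on both strands for AGGTCA followed, after 1 free base, by AGGTCA again. The closest match in each of the 7 differed from the repeat at 4 of its 12 letters, and 74.5% of all 32851 promoters held one at least as close. A single copy of AGGTCA or its reverse complement was present in Cpt1a alone of the 7, and in 14.0% of all promoters. The windows of the 5 members with bright probe sets are shown because 4 of these genes were lower in nulls while Cpt1a was not. Capitals mark the closest match. Where several tied, a match on the strand of the gene was taken first, and then the one nearest the 5' end.
Ppara, GRCm38.p6 chr15:85735526-85735775, plus strand: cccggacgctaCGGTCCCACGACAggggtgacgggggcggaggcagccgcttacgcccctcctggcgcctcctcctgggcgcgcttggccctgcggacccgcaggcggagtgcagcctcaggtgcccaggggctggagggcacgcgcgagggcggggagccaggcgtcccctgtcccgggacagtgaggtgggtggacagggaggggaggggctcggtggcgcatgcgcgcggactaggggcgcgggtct
Pdk4, GRCm38.p6 chr6:5496279-5496528, minus strand: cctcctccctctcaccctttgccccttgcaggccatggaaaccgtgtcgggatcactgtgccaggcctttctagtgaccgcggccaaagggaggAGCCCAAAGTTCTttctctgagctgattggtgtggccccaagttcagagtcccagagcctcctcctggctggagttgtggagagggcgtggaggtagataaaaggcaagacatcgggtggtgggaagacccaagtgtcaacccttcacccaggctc
Acaa1b, GRCm38.p6 chr9:119157094-119157343, minus strand: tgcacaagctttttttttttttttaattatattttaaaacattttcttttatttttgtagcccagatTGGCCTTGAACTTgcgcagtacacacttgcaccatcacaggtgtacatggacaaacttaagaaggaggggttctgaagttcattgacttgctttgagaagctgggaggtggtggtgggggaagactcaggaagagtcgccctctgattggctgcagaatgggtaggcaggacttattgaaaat
Acot1, GRCm38.p6 chr12:84009252-84009501, plus strand: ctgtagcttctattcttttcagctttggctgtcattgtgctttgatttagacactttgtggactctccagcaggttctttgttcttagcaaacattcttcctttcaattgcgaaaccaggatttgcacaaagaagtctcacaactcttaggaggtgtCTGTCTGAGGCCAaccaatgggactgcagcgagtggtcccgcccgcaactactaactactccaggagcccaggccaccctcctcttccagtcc
Cpt1a, GRCm38.p6 chr19:3323051-3323300, plus strand: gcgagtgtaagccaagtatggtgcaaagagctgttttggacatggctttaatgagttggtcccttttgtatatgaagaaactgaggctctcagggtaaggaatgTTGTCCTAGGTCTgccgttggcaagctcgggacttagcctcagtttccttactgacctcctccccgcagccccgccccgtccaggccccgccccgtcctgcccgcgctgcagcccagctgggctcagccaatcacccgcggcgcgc
No close repeat stood in these windows, which says nothing about the receptor at sites farther away.

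The other genes of the pathway were read from 5 lists, 4 of PPAR-alpha targets and 1 of its partners and regulators. Of 50 target genes tested (79 listed, 61 on the array), 12 fell and 0 rose in nulls, beside 1.87% lower and 1.13% higher among all tested probe sets. Their median log2 difference was -0.44, beside 0.03 over all tested probe sets, and 43 were below 0. Over the 12 enterocyte markers, Fabp1 and Fabp2 included, the median was -0.37. Without adjustment 29 were lower and 2 higher at 0.05. For counts below 0 or without adjustment, here and for the regulators below, no share over all tested probe sets is given. Nothing particular to the targets is read from them. The lists were drawn up with earlier results of these mice known, so they are no independent evidence of a direction. Of all 5 lists together 12 genes fell, but leaving out null replicate 1 gave 4, control replicate 1 gave 5, and either control replicate 2 or null replicate 3 gave 7.

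Of 11 peroxisomal genes, 5 fell and 0 rose, with a median log2 difference of -0.58. Catalase, Cat, which destroys the hydrogen peroxide made by peroxisomal oxidation, went from 2190 ± 546 to 598.1 ± 90.3 (SD, n = 3 each; log2 difference -1.83, adjusted p = 0.00585), although the other Cat probe set missed the threshold (log2 difference 0.26, adjusted p = 0.482). The epoxide hydrolase Ephx2 went from 2999 ± 330 to 882.0 ± 209 (adjusted p = 0.0044) and the multifunctional enzyme Hsd17b4 from 3486 ± 897 to 1299 ± 133 (adjusted p = 0.0151). Acaa1a, the thiolase next of kin to Acaa1b, went from 3554 ± 341 to 1800 ± 423 (adjusted p = 0.0334). The fifth was the isomerase Ech1 (log2 difference -0.56, adjusted p = 0.0465), named after its value was seen. In Ehhadh, the other peroxisomal multifunctional enzyme, the log2 difference of -0.90 did not pass (adjusted p = 0.0559).

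Of 15 mitochondrial genes, 3 fell and 0 rose, with a median of -0.37. They were Hadh, the short-chain hydroxyacyl-CoA dehydrogenase (8283 ± 958 to 3982 ± 623, adjusted p = 0.0151), the thiolase Acaa2 (12325 ± 956 to 6315 ± 201, adjusted p = 0.00533) and Cpt2 (log2 difference -0.50, adjusted p = 0.0465), the inner-membrane partner of Cpt1a. The carnitine carrier Slc25a20, which works between Cpt1a and Cpt2, had a log2 difference of -0.30 (adjusted p = 0.443). Slc25a20 was named after its value was seen.

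Of 15 genes of lipid uptake, binding and storage, 2 fell and 0 rose, with a median of -0.43. Both encode fatty acid transport proteins: Slc27a2 went from 1543 ± 482 to 362.6 ± 66.5 (adjusted p = 0.00819) and Slc27a4 from 1884 ± 111 to 969.0 ± 222 (adjusted p = 0.0323). Of 9 remaining targets, 2 fell and 0 rose, with a median of -0.43. Retsat, which saturates retinol, went from 2159 ± 600 to 354.6 ± 92.8 (log2 difference -2.56, adjusted p = 0.00398), and the glycerol phosphate dehydrogenase Gpd1 from 5565 ± 956 to 2891 ± 526 (adjusted p = 0.0312), while the other probe set of Gpd1 did not pass (log2 difference -0.11, adjusted p = 0.917). Pdk1, a sister kinase of Pdk4, was at 393.9 ± 49.8 in controls and 666.6 ± 147 in nulls. Its groups did not overlap and its log2 difference was 0.72, opposite in sign to that of Pdk4, but it did not pass (adjusted p = 0.0939), and it was named after its value was seen.

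Of 12 partners and regulators, 0 fell and 0 rose by limma, 2 were lower and 0 higher at 0.05 without adjustment, and the median was -0.01. Rxra, a retinoid X receptor, was at 916.7 ± 87.0 in controls and 887.7 ± 134 in nulls (log2 difference -0.05, SE 0.15, adjusted p = 0.893). On the other Rxra probe set the log2 difference was -0.26 and did not pass either (adjusted p = 0.415). Rxrb, another retinoid X receptor, was at 1479 ± 127 and 1109 ± 152 (log2 difference -0.42, adjusted p = 0.166). Nr1h3 was at 890.6 ± 41.1 and 593.1 ± 94.6 (log2 difference -0.59, adjusted p = 0.0804) and was named after its value was seen. Nulls lay below all controls for these 2 of the 12, beside 10.8% of all tested probe sets, and above all controls for 0. The hepatocyte nuclear factor Hnf4a, which binds similar repeats, was at 880.2 ± 522 and 1148 ± 643 (adjusted p = 0.707). Pparg, the fat-cell member of the family, was at 153.3 ± 36.0 and 127.0 ± 16.6 (adjusted p = 0.66). Ppard, the remaining family member, and the coactivator Ppargc1a were too dim to be tested, at no more than 73.2 and 95.3 in any mouse.

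In the promoter table, 63 genes of the 5 lists had 80 entries, and 8 of these (10%) held the repeat with at most 2 mismatches, beside 3.24% of all promoters; no test was made of this. The closest was in Fabp1, the liver-type fatty acid carrier of enterocytes, where the repeat on the opposite strand had 1 mismatch and ended 54 bases before the start site, as did 0.484% of all promoters at 1 mismatch or fewer. Fabp1 itself was at 19902 ± 2700 in controls and 15048 ± 3729 in nulls and did not pass (log2 difference -0.43, adjusted p = 0.326). Among the tested genes with such a repeat, Cat alone passed the threshold, on its brighter probe set and not on the other. Nulls also lay below all controls for Plin2 (log2 difference -0.87, adjusted p = 0.0938), Aldh9a1 (-0.43, adjusted p = 0.202) and Etfa (-0.35, adjusted p = 0.16). For Fabp1 and Rxra the groups overlapped, and Cd36 and Ucp3 were too dim to be tested. Cat is therefore not set apart from the others by its direction. The matched bases of Fabp1 and Cat are shown, all in capitals.
Fabp1, GRCm38.p6 chr6:71199812-71199824, plus strand: TGACCTATGGCCT
Cat, GRCm38.p6 chr2:103485345-103485357, minus strand: AGGTCAGAGAACA
A match of letters is a description and not a bound site.

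**Figure D3:**
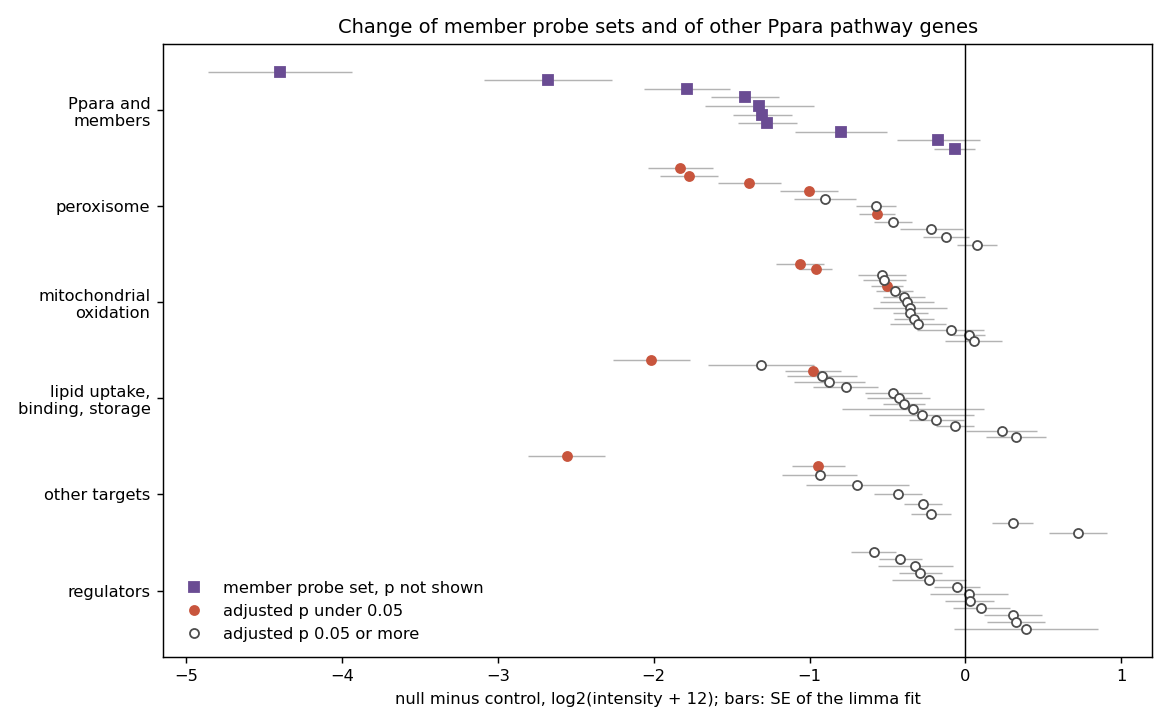
Null minus control on the log2(intensity + 12) scale (horizontal axis) for the 10 bright member probe sets (squares, p not shown) and for the tested genes of 5 lists (circles, filled where the adjusted p was under 0.05); grey bars are standard errors of the limma fit with 3 mice per group. The 12 filled circles all lie below 0, and the 12 regulators lie on either side of 0, 6 below and 6 above.

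The genes whose profile over the 6 mice was most like that of Ppara were found by the root mean square difference of log2 values, each profile centred on its own mean, over 5716 genes. The closest was Ireb2, an iron regulatory protein, at 0.17, followed among genes that are no members by 4931406C07Rik (0.17), the D-amino acid oxidase Dao (0.19), the glucuronosyltransferase Ugt2b34 (0.20), the reductase Cyb5r3 (0.20) and Cftr (0.20). Like Ppara, all 6 of these were highest in control replicate 2. By its probe set nearest to Ppara, Acaa1b ranked 3, Angptl4 30 and Acot1 263, whereas Cpt1a ranked 1653, Pdk4 4504 and Cyp4a10 5686. Cpt1a differed less between the groups than Ppara did, and Pdk4 and Cyp4a10 differed more. The likeness includes the difference between the groups and was not tested.

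**Figure D4:**
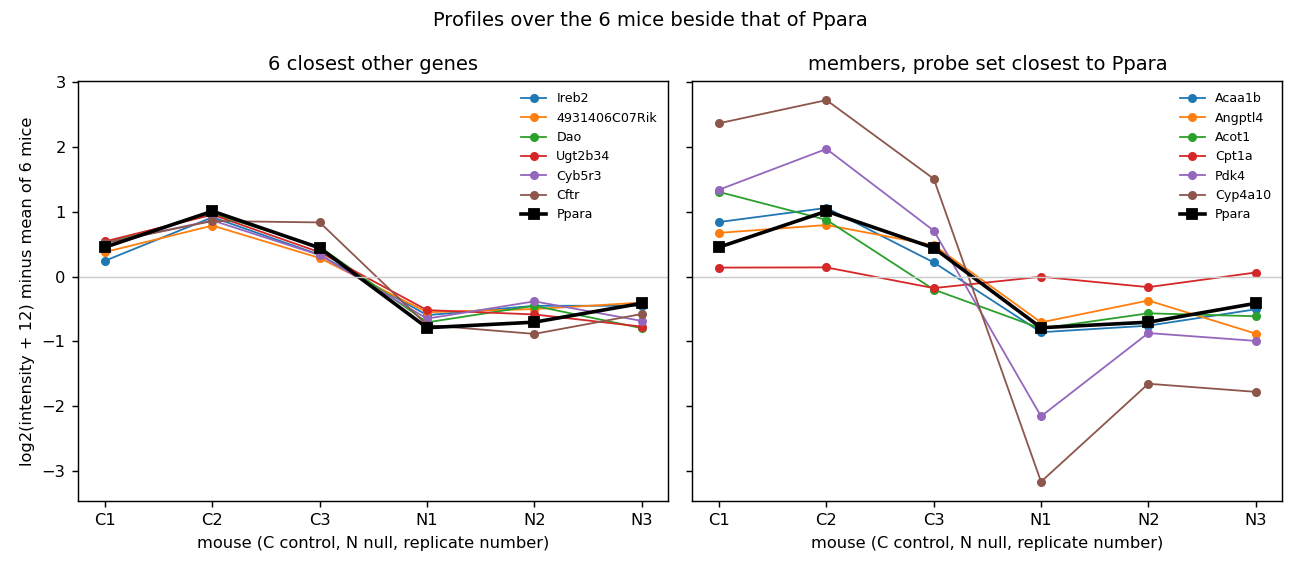
Log2(intensity + 12) minus the mean of the 6 mice (vertical axis) in each control (C) and null (N) mouse, for Ppara (black squares) with its 6 closest other genes (left) and with the members (right); lines only join the points of a gene. The left profiles lie between 0.17 and 0.20 root mean square from Ppara, while Pdk4 at 0.82 and Cyp4a10 at 1.64 spread farther apart between the groups. The mean log2 level of Pdk4 and Cyp4a10 in nulls was dim, so their distances have no exact size.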

How the data were processed

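Total RNA of 6 small intestines, prepared with TRIzol per the labels' protocols, was read on 1-colour arrays. The deposited values are intensity values on a linear scale, scaled before deposit, as equal trimmed means show; software: not given in the sources used here. Of 12488 probe sets, 66 control ones were left out, and 10833 had 1 gene symbol. Values became log2(value + 12), 12 being the 10th percentile, so folds of dim genes are understated. Probe sets above 109.7, the 40th percentile, in at least 3 arrays were tested (7601) with limma 3.58.1 in R 4.3.3 (eBayes with a trend, Benjamini-Hochberg adjustment over all tested, threshold 0.05, two-sided), for genotype, for sex beside genotype, and for their interaction. This was checked on simulated data. Folds are bounds against 109.7 where the lower group's mean log2 lay at or below it. A list gene was read from its brightest tested probe set. Nothing says whether mice shared a litter or a day. Members, lists and rules were chosen with earlier results of these data known. Named were all members, from each list the 4 largest changes below the p threshold, or its 2 brightest genes where none passed, Rxra, Ppard, Pparg, Ppargc1a and Hnf4a, and the 6 profiles nearest to Ppara; others were picked after their values were seen.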

Additional observations from a re-analysis of the deposited data

Results flagged for a closer look

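Between the males every null lay below every control, while the female null lay above the female control, on 5 member probe sets. The female effect minus the male effect, in log2, was 0.57 for Cyp4a14, 0.13 for Cpt1a, and 1.32, 0.91 and 1.80 for Angptl4 on 96119_s_at, 96118_at and 161518_r_at. The limma interaction did not pass on the 3 that were tested, Cpt1a and the first pair of Angptl4 probe sets (adjusted p = 0.9998 each). For Cyp4a14 and the last Angptl4 probe set, which were dim in all mice, the difference was not tested. Each rests on 1 female per group.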

How the results depend on the processing

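No paired analysis was possible because the labels give no replicate numbers and no shared litter or day; the numbers used here follow the order of deposit and only name mice. Over all probe sets 142 were lower and 86 higher in nulls; without a variance trend these were 92 and 49, with males only 85 and 50, and with 1 mouse left out between 35 and 117 and between 17 and 68. Member probe sets below the threshold numbered 6, between 1 and 7 with 1 mouse left out, and again 6 with males only, Acot1 in place of Ppara. Pathway genes that fell numbered 12, 7 without a trend and between 4 and 10 with 1 mouse left out; 0 rose, except Pdk1 with sex as a covariate (1 gene) or without null replicate 2, so that the range was 0 to 1. Sex was called for 2 probe sets, 0 without a trend or with a pseudocount of 48, and 1 without a filter or after quantile normalization; no member was among them under any setting. The interaction was called for 0 under every setting run. The log2 difference of Cyp4a10 moved to -3.49 with a pseudocount of 48, and that of Angptl4 from -0.80 to -0.17 on 96118_at. No called member changed sign. Among members just 3 mice per group and dim signal (Cyp4a14, Fabp3) limit what can be seen.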
